A study of Mus musculus with 82 samples.

Results

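Transcription of the Myc family and its partners was followed in V6.5 mouse embryonic stem (mES) cells through 5 named genes, Mycn, Myc, Mycl, Max and Mga, among the 24755 curated RefSeq genes used for the whole series. The genes were chosen by name, and the rule counted their sense reads in the promoter (500 bp on each side of the transcription start site, TSS) and in the body (from the end of that window to the gene end), upstream antisense reads and cells with reads. Nascent RNA was labelled by a run-on with propargyl nucleotides and clicked to barcoded DNA in 3 assays that share 1 cell line and 1 untreated condition, growth in serum and LIF on gelatin. AGTuC (2 libraries) was run on bulk nuclei with a sarkosyl concentration that breaks the nuclear membrane, inAGTuC (4 libraries) on intact nuclei spread over wells with less sarkosyl, and scGRO–seq on single nuclei in wells, here 10 batches with 2512 kept cells. Both AGTuC libraries come from 1 experiment, so assay and experiment cannot be told apart in comparisons with AGTuC. As the labels do not say whether libraries or batches came from separate cultures, p-values measure the spread between these samples, which may be technical.

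MYC, MYCN and MYCL are basic helix–loop–helix leucine zipper transcription factors that bind E-box DNA only as dimers with MAX and activate genes of growth and ribosome production. MAX also pairs with MXD proteins, MNT and MGA, which counter MYC. MGA carries a T-box as well and joins MAX to the Polycomb complex PRC1.6, which keeps germ-line genes silent in mES cells, and mES cells are known for using MYC and MYCN together.

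The genes differ in length. On GRCm38, Myc lies on the plus strand at chr15:61985341-61990361 (5.02 kb), Mycn on the minus strand at chr12:12936093-12941836 (5.74 kb), Mycl on the plus strand at chr4:122995931-123002485 (6.56 kb), Max on the minus strand at chr12:76937269-76962248 (25.0 kb) and Mga on the plus strand at chr2:119897228-119969581 (72.4 kb). Exons of the curated transcripts covered 2399 bp of Myc, 2596 bp of Mycn, 3669 bp of Mycl, 2351 bp of Max and 13931 bp of Mga.

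Promoter sequences of RefSeq (GRCm38.p6, 250 bases before the TSS to 50 after it) matched 4 of the 5 genes, all but Myc. Those of Mycn, Mycl and Max are shown because Mycn had the most promoter reads of the 5 genes in AGTuC, Mycl the promoter difference and Max the most upstream antisense reads described below. Capitals mark motifs searched on both strands, namely the GC box with the letters GGGCGG in Mycn and Mycl, the TATA box with the letters TATAAA in Mycl and the E-box with the letters CACGTG in Max. The motifs do not overlap each other.
Mycn, chr12:12941787-12942086, minus strand: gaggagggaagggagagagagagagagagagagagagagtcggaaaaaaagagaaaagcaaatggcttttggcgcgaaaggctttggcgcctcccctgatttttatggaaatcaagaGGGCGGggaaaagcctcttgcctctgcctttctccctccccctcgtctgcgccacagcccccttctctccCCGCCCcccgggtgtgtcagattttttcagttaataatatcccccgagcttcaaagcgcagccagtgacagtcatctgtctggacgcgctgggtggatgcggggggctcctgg
Mycl, chr4:122995681-122995980, plus strand: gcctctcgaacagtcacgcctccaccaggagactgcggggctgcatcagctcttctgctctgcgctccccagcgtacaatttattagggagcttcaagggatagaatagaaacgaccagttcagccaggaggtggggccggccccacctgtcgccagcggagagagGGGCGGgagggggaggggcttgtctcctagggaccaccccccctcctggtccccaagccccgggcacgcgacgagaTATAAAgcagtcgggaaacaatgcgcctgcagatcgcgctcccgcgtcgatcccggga
Max, chr12:76962199-76962498, minus strand: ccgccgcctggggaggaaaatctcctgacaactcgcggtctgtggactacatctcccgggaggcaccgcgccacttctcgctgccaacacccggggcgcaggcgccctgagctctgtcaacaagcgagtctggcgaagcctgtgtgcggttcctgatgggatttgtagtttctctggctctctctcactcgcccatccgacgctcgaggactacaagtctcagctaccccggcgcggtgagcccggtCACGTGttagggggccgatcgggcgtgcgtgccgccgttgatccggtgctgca
The E-box of Max spans positions -3 to 2 from the TSS, and the TATA box of Mycl spans positions -8 to -3. The GC boxes begin at position -84 in Mycl and at positions -133 and -63 in Mycn, the latter on the other strand, and the window of Mga holds 1 GC box at position -146. Of 32851 promoter windows of the same length, 7.15% hold CACGTG, 13.6% hold TATAAA and 35.7% hold GGGCGG, so none of these letters is rare. The letters CCAAT were also searched and are in 37.4% of all windows but in none of the 4.

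Depth was 2231837 and 4755740 reads in the AGTuC libraries, 623265 to 1462003 in the inAGTuC libraries and 223119 to 4928371 per scGRO–seq batch. The fourth inAGTuC library is also present under the scGRO–seq label, where 99.7% of its 1526386 molecules are the same, so the label of that library is not certain. It was counted once, as inAGTuC, and the differences of the members against AGTuC and the counts of the gene lists are also given without it, except those on introns alone. The 10 ES cell markers had reads in every assay, with a summed level of 12.3 to 12.8 RPKM (sense reads per kb, scaled to the sense gene-body reads of a sample) in AGTuC, 4.03 to 6.21 in inAGTuC and 2.75 to 9.24 in scGRO–seq. The 6 fibroblast markers were between 0.170 and 0.687 in the 3 assays, with Col1a2 and Col3a1 at 0 in AGTuC, the 4 endoderm markers between 0.220 and 1.66 and the 4 mesoderm markers between 0 and 1.07. The summed level of the 4 neural markers was 3.93 to 4.76 in AGTuC, 0.667 to 1.50 in inAGTuC and 0.367 to 1.86 in scGRO–seq. Of them Sox1 (390, 15 and 29 reads) and Olig2 (214, 19 and 17 reads) were higher in AGTuC, while Pax6 (1, 40 and 126 reads) and Neurog2 (2, 3 and 10 reads) were lower there, and their part in the results was not tested.

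Body levels below are in the same unit, RPKM over the body and scaled to the sense gene-body reads of the sample. Differences between assays were tested with limma over 15121 genes, and adjusted p-values are over all of them. In bulk samples, fewer transcribing cells and less transcription per cell cannot be told apart. Mycn had the highest body level of the 5 genes in every assay, above 97.3% of genes or more, and Mycn and Myc were lower in inAGTuC than in AGTuC. These are 2 of 5 genes, beside 17.6% of all genes called lower and 16.8% called higher in this comparison. This balance depended on the fit, with 847 lower and 2248 higher by limma-trend and 2725 lower and 5035 higher with no read minimum. With the fourth inAGTuC library left out, 1792 of 14915 genes were lower and 2597 higher. The levels of Max and Mga, the partners, overlapped between the 3 assays.

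Mycn, the family member transcribed most in these cells, had body levels of 20.4 and 22.1 in the AGTuC libraries. The inAGTuC libraries had 4.37, 5.75, 4.31 and 8.38, and the scGRO–seq batches ran from 1.56 through a median of 6.52 to 11.2. Both AGTuC libraries lay above all other samples, while inAGTuC and scGRO–seq overlapped. The inAGTuC level was lower than the AGTuC level by a log2 difference of -1.80 (SE 0.42, limma adjusted p = 0.00301), and -2.07 (adjusted p = 0.00430) without the fourth inAGTuC library. Without AGTuC replicate 2 the difference was -1.74 and no longer passed (adjusted p = 0.0512).

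Myc, the prototype of the family, had levels of 5.71 and 8.37 in AGTuC. In inAGTuC it had 3.38, 0, 2.50 and 3.15, where the second library held no body read and 3 reads would be a level of 1.43. Batches of scGRO–seq ran from 2.05 through a median of 4.46 to 5.87. AGTuC lay above all inAGTuC libraries, but the lower AGTuC library was within the range of the batches. With the body cut into 4 parts along the gene, Myc had 29, 52, 11 and 25 reads in AGTuC. The inAGTuC libraries together had 2, 2, 8 and 9, and scGRO–seq had 20, 19, 17 and 16. Reads thus lay mostly in the first 2 parts in AGTuC and in the last 2 in inAGTuC. The lower level of Myc in inAGTuC was therefore not even along its body, on few reads, which was not tested. The log2 difference between inAGTuC and AGTuC was -2.07 (SE 0.64, limma adjusted p = 0.0172), on 21 and 117 body reads in all. It was -2.51 (adjusted p = 0.0153) without the fourth inAGTuC library, while it no longer passed without the second inAGTuC library, at -1.16 (adjusted p = 0.0749), or without AGTuC replicate 2, at -1.76 (adjusted p = 0.143).

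Mycl had the lowest mean body level of the 5 genes in each assay, though not the lowest promoter level in AGTuC. Its body levels were 1.76 and 2.63 in AGTuC, 1.89, 1.07, 2.62 and 0.196 in inAGTuC, and from 0 through a median of 0.925 to 2.18 in scGRO–seq. The assays overlapped, and the log2 difference of -1.12 (SE 0.69, limma adjusted p = 0.213) did not pass; without the fourth inAGTuC library it was -0.25 (adjusted p = 0.802). Its span held 16 antisense against 15 sense reads in inAGTuC and 21 against 31 in scGRO–seq, compared with 19 against 118 in AGTuC.

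Max, the shared dimer partner, had 4.21 and 3.79 in AGTuC, 3.90, 4.05, 3.70 and 5.92 in inAGTuC, and from 2.98 through a median of 4.18 to 5.34 in scGRO–seq. Mga, the largest gene of the group, had 2.62 and 2.73 in AGTuC, 2.60, 3.45, 2.42 and 6.84 in inAGTuC, and from 2.05 through a median of 3.59 to 5.87 in scGRO–seq. Groups overlapped for both, and the fourth inAGTuC library was the highest inAGTuC sample for both. Log2 differences between inAGTuC and AGTuC were 0.17 (SE 0.26, limma adjusted p = 0.653) for Max and 0.45 (SE 0.37, adjusted p = 0.358) for Mga, and -0.021 (adjusted p = 0.964) and 0.072 (adjusted p = 0.897) without that library. With all reads of a library as the total in place of gene-body reads, the difference of Max was -0.010. With plates as samples and the batch as a random block, Mga was called higher in inAGTuC (0.59, SE 0.24, limma adjusted p = 0.0437). Only scGRO–seq is split into plates there. The AGTuC and inAGTuC libraries are the same, so that fit adds no replicate to this comparison.

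**Figure D1:**
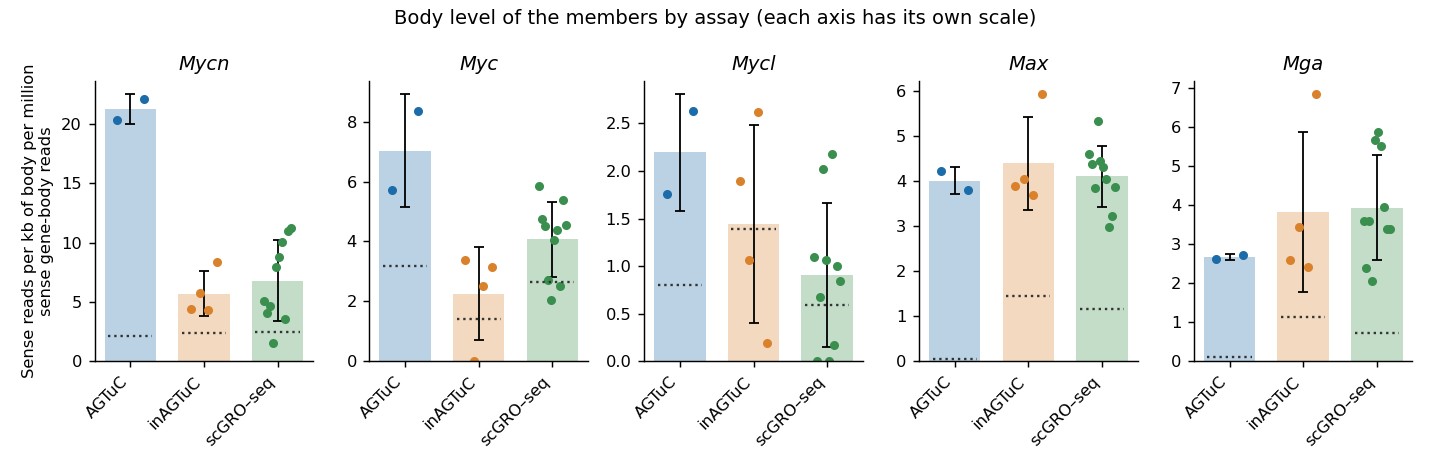
Body level (y axis, RPKM over the body, a separate axis per gene) by assay (x axis). Points are the 2 AGTuC libraries, 4 inAGTuC libraries and 10 scGRO–seq batches, bars are means with the SD, and dotted lines are the mean level of antisense reads over the gene span. Both AGTuC points of Mycn, at 20.4 and 22.1, lie above all other Mycn points, and for Mycl the dotted line is near the bar in inAGTuC (1.39 against 1.44).

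Antisense reads inside the genes, which can come from background or from antisense transcription, took a larger part in intact nuclei. Over 1110 olfactory receptor genes, the pooled sense level was 0.00991, 0.110 and 0.0935 RPKM in AGTuC, inAGTuC and scGRO–seq. The mean antisense level of Mycn was similar in the 3 assays, at 2.13 ± 0.27 (SD, n = 2) in AGTuC, 2.41 ± 1.00 (n = 4) in inAGTuC and 2.46 ± 1.62 (n = 10) in scGRO–seq, while sense reads exceeded antisense reads 13.8-fold, 2.73-fold and 2.45-fold. Max had 5 antisense and 370 sense reads in AGTuC, but 67 and 249 in inAGTuC and 197 and 548 in scGRO–seq. In the body of Max, the third inAGTuC library held 32 of 63 antisense and 40 of 233 sense reads of inAGTuC. Batch Exp236 held 137 of 191 and 270 of 529 of those of scGRO–seq. Mga moved the same way, with 26 antisense and 719 sense reads, 149 and 665, and 477 and 1791. In the body of Mga, the fourth inAGTuC library held 37 of 146 antisense and 414 of 655 sense reads of inAGTuC. Exp236 held 364 of 472 and 1016 of 1781 of those of scGRO–seq. Over all genes the sense share of reads on gene spans was 83.3% in AGTuC, 67.4% in inAGTuC and 69.1% in scGRO–seq.

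The 3 MYC genes are short and the 2 partners long, and over all genes short classes were lower in inAGTuC than in AGTuC and long classes higher. Among 1434 tested genes of 4 to 8 kb, the class of Myc, Mycn and Mycl, the median log2 difference was -1.05 and 34.9% were called lower. Among 3432 genes of 16 to 32 kb, the class of Max, the median was -0.42, and among 2131 genes of 64 to 128 kb, the class of Mga, it was 0.39. The differences of Mycn (-1.80) and Myc (-2.07) were below the median of their class, that of Mycl (-1.12) was near it, and those of Max (0.17) and Mga (0.45) were near or above theirs. No test against the class was made, and Mycl passed the read minimum only through AGTuC. The class medians were -0.87, -0.27 and 0.52 without the fourth inAGTuC library, and Mga (0.072) was then below its class median and Mycl (-0.25) above its own. The median over all tested genes was -0.19, and -0.31 with all reads of a library as the total.

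**Figure D2:**
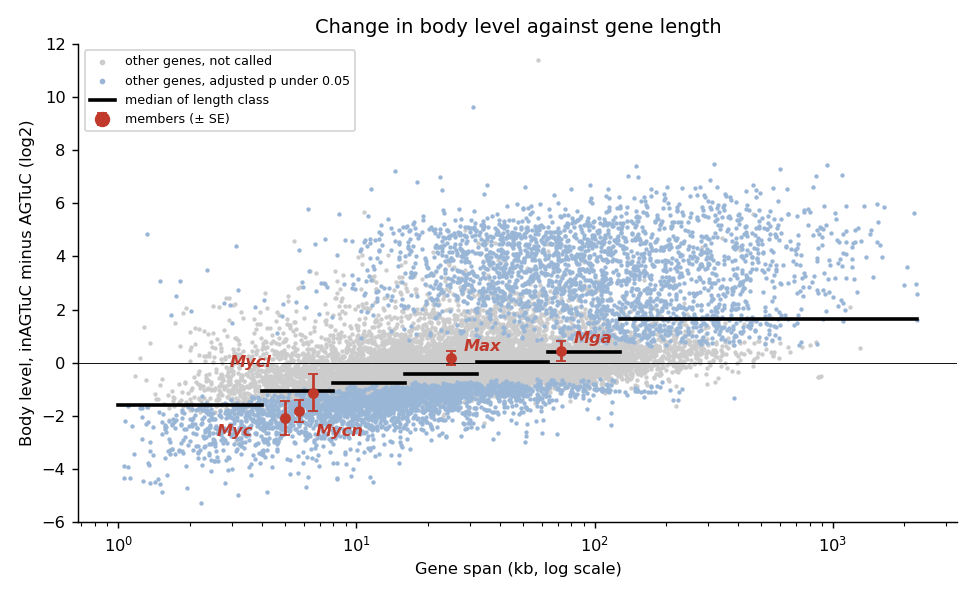
Log2 difference in body level between inAGTuC and AGTuC (y axis) against gene span (x axis, kb, log scale) for 15121 tested genes, blue where the adjusted p is under 0.05. Red points are the 5 genes with the SE of the fit, and black lines are medians of length classes, which rise from -1.59 in genes of 1 to 4 kb to 1.64 in genes over 128 kb.

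No difference between scGRO–seq and inAGTuC was called for any member or any other gene by limma, by voom (832 of 15121 genes at an unadjusted p under 0.05) or by limma-trend (527 genes). The largest among the members was Myc, higher in scGRO–seq by 1.00 on the log2 scale (SE 0.60, limma adjusted p = 0.845), and the others lay between -0.19 for Mycl and 0.09 for Mga. Without the fourth inAGTuC library 140 genes were called, and none was a member. With all labelled batches and the experiment as a block, no gene was called either (1395 of 15360 at an unadjusted p under 0.05). The members lay between -0.72 for Max and 0.95 for Myc. This fit takes the difference from the 2 experiments with both an inAGTuC library and kept cells, Exp208 and Exp261 (Exp234 is labelled for both but had no kept cell). The inAGTuC library of Exp261 is the fourth, whose label is not certain, and the fit was not run without it. It had 3 residual degrees of freedom, which limits what it could detect. In the listed batch used for both assays, Exp208, pooled levels in inAGTuC and scGRO–seq were 5.25 and 4.69 for Mycn, 1.22 and 4.53 for Myc, 1.36 and 0.676 for Mycl, 3.99 and 3.85 for Max and 3.14 and 3.59 for Mga, on 1 to 164 reads each.

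Within scGRO–seq batches, the order of body levels was Mycn (6.80 ± 3.44, SD, n = 10), Max (4.10 ± 0.68), Myc (4.07 ± 1.26), Mga (3.94 ± 1.34) and Mycl (0.906 ± 0.760). Neighbours in this order were compared as log2 ratios within batches, with two-sided exact sign-flip tests adjusted over the 4 pairs, where the smallest possible p is 0.00195. The pairs and their directions were taken from the levels of these same batches, so the p-values are a description and no separate support for the order. Mga was above Mycl by 1.93 ± 1.28 (SD), in 9 of 10 batches (exact p = 0.00391, adjusted 0.0156). Mycn was above Max by 0.61 ± 0.94, also in 9 of 10 batches, which did not pass (exact p = 0.0703, adjusted 0.141), and passed at 0.84 (adjusted 0.00781) without batch Exp211. Max and Myc (-0.05 ± 0.58) and Myc and Mga (0.18 ± 0.80) did not differ beyond their spread. In introns alone, mean scGRO–seq levels were 5.59 ± 3.07 for Mycn, 4.04 ± 0.76 for Max, 3.47 ± 1.54 for Myc, 2.19 ± 1.02 for Mga and 0.561 ± 0.620 for Mycl. The level and rank of Mga thus rest in part on exon reads, and the order in introns was not tested. In AGTuC, Myc stood next to Mycn, at 7.04 ± 1.88 (SD, n = 2), above Max (4.00 ± 0.30) and Mga (2.68 ± 0.08). Among all tested genes, Max was above 78.3% by AGTuC level and above 95.1% and 94.3% by inAGTuC and scGRO–seq level, and Mga above 67.3%, 94.6% and 95.8%. Myc was above 91.5%, 78.1% and 89.5%, and Mycl above 63.1%, 49.4% and 43.5%.

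At the promoters, AGTuC showed a peak of sense reads after the TSS of Myc, Mycn and Mycl that held few reads in intact nuclei. For Max, the bins at 50 to 99 and 100 to 149 bp held 19 and 8 reads in AGTuC (5.51 and 2.32 RPM) and 6 and 6 in inAGTuC (2.98 RPM each). The promoter density divided by the body density, from summed reads, fell from AGTuC through inAGTuC to scGRO–seq for 4 genes, as 3.94, 1.51 and 0.942 for Myc, 2.45, 1.17 and 0.346 for Mycn, 2.80, 1.68 and 0.972 for Max and 7.41, 1.54 and 0.524 for Mga. Mycl went from 9.51 to 0.432 and 0.649. The inAGTuC values rest in part on the fourth library, without which they were 1.00 for Myc, 2.10 for Mycn, 3.09 for Max, 3.28 for Mga and 0.466 for Mycl, so that Max was no longer below its AGTuC value. The medians over all genes with at least 50 body reads were 7.59, 1.50 and 1.05. In the fit over 15745 genes, 37.0% of genes were called lower in inAGTuC and 1.61% higher, with a median log2 difference of -2.02, and of the 5 members only Mycl was called. Leaving out the fourth inAGTuC library gave 4328 of 15540 genes lower and 219 higher. Quantile normalization, which gives promoter and body columns the same distribution, left 3 genes higher and 2 lower, with no member called; under it the value of Mycl was -0.82 and the other 4 members turned to values above 0.

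Mycl had 18 and 59 promoter reads beside 12 and 37 body reads in the AGTuC libraries. In the inAGTuC libraries it had 0, 0, 1 and 0 promoter reads beside 3, 3, 7 and 1 body reads, and in all scGRO–seq batches 3 beside 28. The promoter share of these reads was thus 61.1% (95% exact interval 52.02 to 69.67%) in AGTuC and 6.67% (0.169 to 31.9%) in inAGTuC, intervals that cover counting error only. The log2 difference of the ratio was -3.00 (SE 1.09, limma adjusted p = 0.0266), and -3.25 (adjusted p = 0.0285) without the fourth inAGTuC library; as it rests on 1 inAGTuC promoter read, its size depends on the small counts. Mycl passed the minimum of 50 reads only through AGTuC, so that the difference is given as a description, and with no read minimum its adjusted p was 0.0538. The call was lost without either AGTuC library (adjusted p = 0.123 and 0.134) and without inAGTuC replicate 1 or 2 (0.0513 and 0.0584).

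For the other members the same contrast was -1.63 (SE 1.03, adjusted p = 0.193) for Mga, -1.02 (SE 1.05, adjusted p = 0.430) for Myc, -0.92 (SE 1.03, adjusted p = 0.468) for Mycn and -0.33 (SE 0.97, adjusted p = 0.790) for Max. When the fourth inAGTuC library was left out, these were -0.91, -1.03, -0.40 and 0.36, with adjusted p-values of 0.482 to 0.784. With a promoter of 250 bp on each side the value of Myc turned to 1.28, since its peak lies beyond that window. Between scGRO–seq and inAGTuC no gene was called by limma, with 665 genes at an unadjusted p under 0.05 and 0 called by limma-trend, and members ranged from -1.27 for Mycn to 0.87 for Mycl. With plates as samples and the batch as a random block, however, 4909 of 15745 genes were called higher in scGRO–seq and 27 lower, with Mycl among the former (1.86, limma adjusted p = 0.0245). The median over all genes in that fit was 1.25, while the median ratio from summed reads was 1.50 in inAGTuC and 1.05 in scGRO–seq. Mycl had 1 promoter read in inAGTuC and 3 in scGRO–seq.

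The place of the peak differed between the genes. In AGTuC, 62 of 102 promoter reads of Myc fell 250 to 299 bp after the TSS, and the single most frequent 3′ end was at 256 bp with 8 reads. Mycn had 64 of 182 reads at 50 to 99 bp, and its most frequent 3′ end was at 38 bp with 11 reads of 11 different UMIs from both libraries. Max had 19 of 38 reads at 50 to 99 bp, Mycl 22 of 77 at 150 to 199 bp with its most frequent 3′ end at 231 bp (4 reads), and Mga a broad distribution in which no 50-bp bin held more than 11 of 69 reads. Distances are from the outermost curated start, so a peak far from it can belong to a start further inside the gene, which was not tested.

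The genomic bases around the most frequent 3′ ends of Mycn and Mycl are given, with the base at the 3′ end in capitals and 10 bases on each side, on the strand of the gene.
Mycn, chr12:12941788-12941808: ggtggatgcgGggggctcctg
Mycl, chr4:122996152-122996172: tgaggctgcgGgtggcccggg
Both positions are a G that follows the letters tgcg. With 2 sites, chosen for their reads, this is a description only.

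Antisense reads near the TSS were unequal between the genes. Max had 50 upstream antisense reads within 1000 bp in AGTuC, 12 and 38 by library, beside 1, 0, 1 and 1 in the inAGTuC libraries and 3 in all scGRO–seq batches. AGTuC lay above all other samples, at levels of 10.7 and 16.3 RPM, scaled as above, against at most 3.82 in inAGTuC and 4.09 in scGRO–seq. The log2 difference between inAGTuC and AGTuC was -2.48 (SE 0.92, limma adjusted p = 0.0117), and -2.37 (adjusted p = 0.0201) without the fourth inAGTuC library. Max passed the minimum of 50 reads only through AGTuC, so that the difference is given as a description. The same holds for the background, in which 88.3% of 4516 tested genes were called lower, with a median of -3.23, and 0.376% higher (3628 lower and 13 higher of 4455 without the fourth inAGTuC library). With no read minimum, 5061 of 20824 genes were lower and 794 higher, with a median of -0.32, and of the members Max (-2.48, adjusted p = 0.0358) was called but not Myc (-2.10, adjusted p = 0.0765). With quantile normalization, which gives the samples the same distribution, Max turned to 1.12 and was not called, and 7 genes were called in each direction. The median over all genes was then 0.048. Of the other members, Myc had 26, Mycn 17, Mga 16 and Mycl 5 upstream reads in AGTuC. Of the antisense reads within 500 bp of the TSS, 20 of 42 for Max lay at positions -350 to -301, whereas for Myc 18 of 50 lay 50 to 99 bp downstream of the annotated TSS, between it and the sense peak. Between scGRO–seq and inAGTuC the difference of Max was -0.25 (SE 0.66, limma adjusted p = 0.998), and no gene was called (154 at an unadjusted p under 0.05, 0 by limma-trend), but 1828 were with plates as samples and the batch as a random block, Max not among them (1.01, adjusted p = 0.140). The median over all genes in that fit was 1.18.

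**Figure D3:**
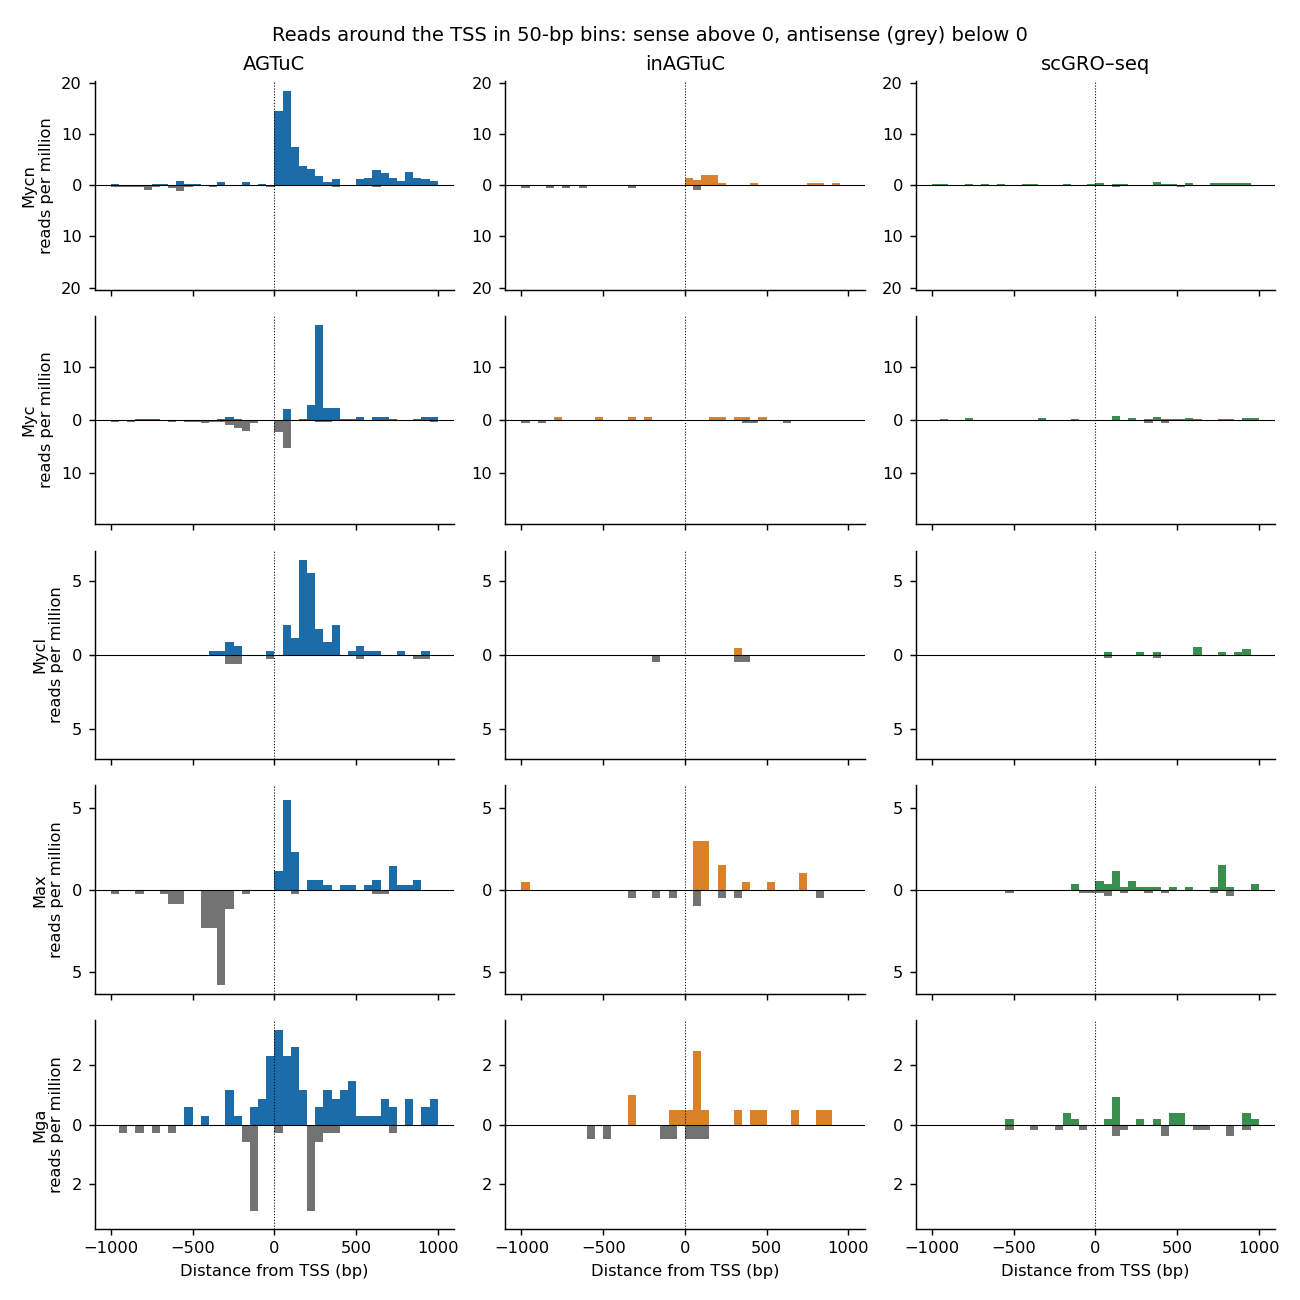
Reads in 50-bp bins as RPM of the assay (y axis, sense up and antisense down in grey) against distance from the TSS (x axis, bp) for 5 genes (rows, each with its own scale) and 3 assays (columns, reads of all samples summed). The sense peak of Myc lies at 250 to 299 bp and that of Mycn at 50 to 99 bp in AGTuC, and Max has antisense reads at -350 to -301 bp.

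Past the annotated gene ends, summed reads of every member were denser in AGTuC than in intact nuclei relative to its body. The density in the first 2 kb after the end, divided by the body density, was 1.49 for Mycn (222 reads), 1.27 for Myc (66), 1.24 for Mycl (20), 3.24 for Max (88) and 3.44 for Mga (64) in AGTuC, around the median of 1.74 over 9662 genes with no other gene there. The AGTuC libraries differed, with ratios of 2.42 and 0.899 for Myc, 2.11 and 3.85 for Max, 1.86 and 1.33 for Mycn, 1.51 and 1.15 for Mycl and 2.71 and 3.77 for Mga. For Myc the lower of these lay below 2 scGRO–seq batches, Exp246 (1.13) and Exp260 (1.51), which had 2 reads each there. In inAGTuC it ran from 0 for Mycl (0 reads) to 0.329 for Mga (6), with a median of 0.409, and in scGRO–seq from 0.108 for Mycl (1 read) to 0.534 for Myc (17), with a median of 0.443. The inAGTuC ratios without the fourth library ran from 0 for Myc and Mycl to 0.331 for Max, on 0 to 3 reads. These ratios were not tested. In AGTuC, 64 and 128 reads of Max lay 2 to 4 kb and 4 to 10 kb after its end (2.36 and 1.57 times the body density), and Mycn had 15 and 8 there (0.101 and 0.0179 times). Mga had 68 and 13 (3.65 and 0.233 times), but these windows run into Mapkbp1, which begins 3.12 kb after Mga on the same strand. The next curated gene, Fntb on the other strand, ends 15.9 kb beyond the end of Max.

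In intact nuclei, Mga had a larger part of its body reads in exons, per length, than the other members. Exons are 19.2% of its body but held 31.99% of its body reads in AGTuC, 50.7% in inAGTuC and 52.1% in scGRO–seq. By sample, the exon share was 35.8 and 30.2% in AGTuC, 28.6, 52.2, 42.9 and 54.3% in inAGTuC, and 42.1 to 76.9% in scGRO–seq. All scGRO–seq batches lay above both AGTuC libraries, and inAGTuC overlapped them. Without the fourth inAGTuC library the inAGTuC share was 44.4% of 241 reads and its exon over intron density 3.36. The density in exons over that in introns was 1.98, 4.32 and 4.57, above 78.2%, 96.9% and 96.5% of genes, whose medians were 1.29, 1.86 and 1.81. Antisense reads showed the same ratio in intact nuclei, 4.44 in inAGTuC (75 of 146 reads in exons) and 4.27 in scGRO–seq (238 of 472), where the medians of antisense reads were 1.79 and 1.65. AGTuC held 11 antisense body reads of Mga, 2 of them in exons. The mean level in introns was 2.22 ± 0.20 (SD, n = 2), 2.48 ± 0.96 (n = 4) and 2.19 ± 1.02 (n = 10), and in exons 4.59 ± 0.42, 9.50 ± 6.97 and 11.3 ± 3.68. This pattern was singled out after its values were seen and was not tested. With introns alone, log2 differences between inAGTuC and AGTuC were 0.13 (limma adjusted p = 0.817) for Mga, 0.11 (0.773) for Max, -1.99 (0.00260) for Mycn and -2.45 (0.0104) for Myc. The exon over intron density of the other 4 genes was between 0.802 and 2.03. Without the fourth inAGTuC library that of Myc in inAGTuC was 2.57, on 9 body reads.

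**Figure D4:**
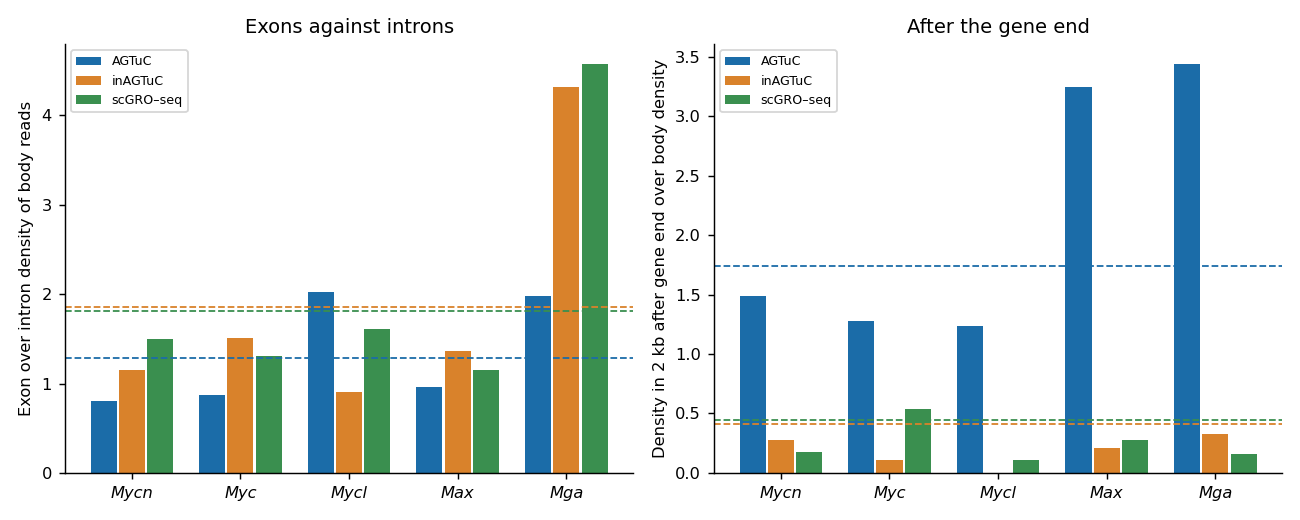
Left, density of body reads in exons divided by that in introns, and right, density in the 2 kb after the gene end divided by body density (y axes, ratios of summed reads), for 5 genes (x axes) in 3 assays (colours), with dashed lines at the median over all genes of each assay. Mga has the highest exon ratios in inAGTuC (4.32) and scGRO–seq (4.57), and bars after the gene end are highest in AGTuC for each gene.

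In single cells, the share with a read was highest for the 2 longest genes, Mga and Max, and lowest for Mycl. The 2512 kept cells had 1177 to 51431 reads each, with a median of 3435.5. Mga had at least 1 sense read on its span in 1056 cells (42.04%, 95% Wilson interval 40.12 to 43.98%), Max in 459 (18.3%, 16.8 to 19.8%), Mycn in 199 (7.92%, 6.93 to 9.04%), Myc in 82 (3.26%, 2.64 to 4.03%) and Mycl in 31 (1.23%, 0.871 to 1.75%). These intervals cover counting error only. Mga was thus found in more cells than 98.3% of 22906 genes with a read, whose median share was 2.27%, and Mycl in more than 38.1%.

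For comparison, cells with an antisense read on the same span numbered 340 for Mga (13.5%), 167 for Max (6.65%), 79 for Mycn (3.14%), 44 for Myc (1.75%) and 21 for Mycl (0.836%). The sense and antisense shares of Mycl had overlapping intervals (0.871 to 1.75% and 0.547 to 1.27%) and could not be told apart. The mean sense span level of Mycl in scGRO–seq was 1.00 RPKM, against 0.0935 over 1110 olfactory receptor genes, which was not tested. Cells with a read were deeper than those without, with median reads of 4255 against 3064 for Mga, 4682 against 3287 for Max, 4492 against 3402 for Mycn, 4132 against 3414 for Myc and 4766 against 3429 for Mycl.

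The shares varied between batches. Mga ran from 23.9% of cells in Exp160 through a median of 34.3% to 58.3% in Exp236, with Exp246 at 58.1%, and no other batch was above 38.6%. Max ran from 10.7% through 14.6% to 26.5%, and Mycn from 1.80% in Exp211 through 6.24% to 13.1%. Myc stayed between 2.70 and 4.48%. Exp236, which gave 812 of the cells and had the highest median depth (4155.5 reads), was the highest batch for Mga, Max and Mycn but not for Myc. It also gave 238 of the 340 cells with an antisense read for Mga, 111 of 167 for Max and 47 of 79 for Mycn. Exp211 and Exp260b, with median depths of 4077 and 4047 reads, had an Mga read in 27.9 and 38.6% of cells. Reads left out because they were in more than 1 library also differed by batch. They were 32.6 to 47.4% per library in Exp236, 26.9 to 53.8% in Exp264a and 2.88 to 5.89% in Exp260b. The part of depth and of these left-out reads in the shares of cells was not tested. Over all cells but those of Exp236, the shares were 34.3% for Mga, 14.4% for Max, 5.47% for Mycn, 3.47% for Myc and 0.882% for Mycl.

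Cells with 2 or more reads numbered 386 for Mga (15.4%), 75 for Max, 7 for Mycn, 2 for Myc and 0 for Mycl, which allows a share of up to 0.119%. Of these, Exp236 gave 245 for Mga and 50 for Max. Without this batch 141 of 1700 cells (8.29%) had 2 or more Mga reads, and its share per batch ran from 2.17 to 25.8%. Reads of the same cell within 50 bp were few, as 381 cells for Mga, 70 for Max, 5 for Mycn and 0 for Myc remained when such reads were counted once. Neighbouring Mga reads of a cell were apart by a median of 11.5 kb, and up to 13 reads of Mga were in 1 cell. Among cells with a read, 36.6% had 2 or more for Mga, 16.3% for Max and 3.52% for Mycn, where the median over 8912 genes found in at least 100 cells was 11.3% (quartiles 7.28 and 18.6%). Mga was above 95.5% of these genes, Max above 69.4% and Mycn above 3.73%. These genes were not matched to the members by span or by share of cells with a read, so the ranks are a description only. Exp236 weighed on these shares, as without it they were 24.2% of 583 cells for Mga and 10.2% of 244 cells for Max, beside a median of 10.6% over 6176 genes, and Mga was above 89.6% and Max above 47.8% of them.

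**Figure D5:**
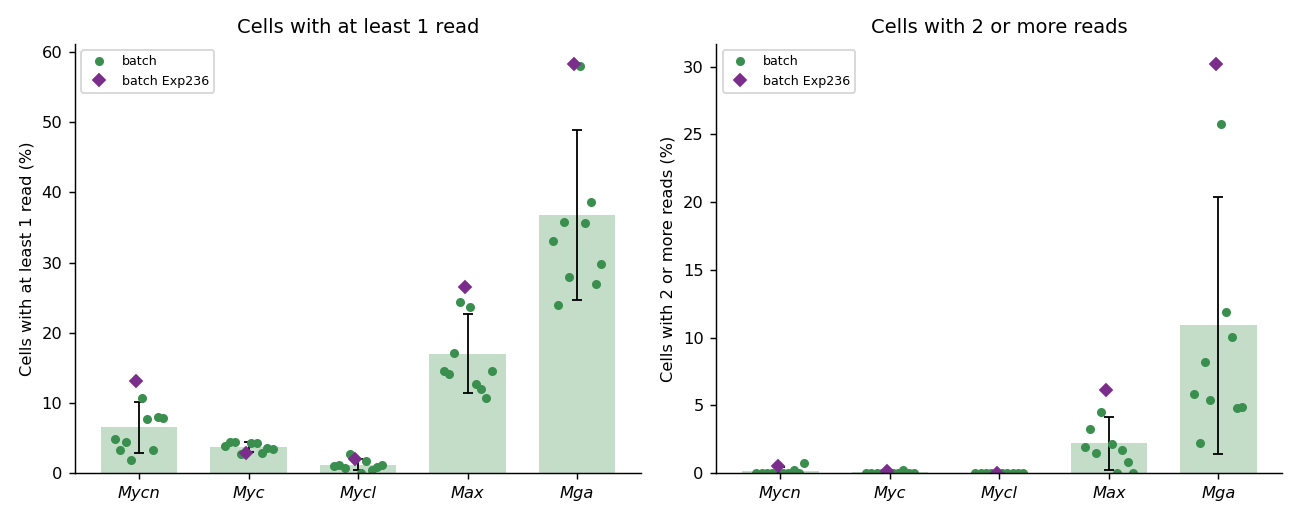
Share of kept cells (y axes, %) with at least 1 sense read (left) and with 2 or more (right) for 5 genes (x axes). Points are the 10 scGRO–seq batches, with Exp236 as a diamond, and bars are means over batches with the SD, cut at 0 below. Mga spans 23.9 to 58.3% on the left and 2.17 to 30.2% on the right, and Exp236 is highest for Mga and Max in both.

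Most cells with a read of a member held reads of 1 member. A read of any member was in 1400 cells (55.7%), of 1 member in 1036, of 2 members in 304, of 3 in 57 and of 4 in 3 cells, and no cell had all 5. Max and Mga were together in 238 of the 459 Max cells, Mycn and Mga in 113 of the 199 Mycn cells, Mycn and Max in 50, Myc and Max in 16 and Myc and Mycn in 7. Median depth rose from 2940 reads in cells with no member to 6086 in cells with 2 members and 8937 in cells with 3, so co-occurrence moved with depth and its part in these counts was not tested.

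Member reads per 10000 reads, each summed over cells, were compared between the deeper and the shallower cells of each batch. Two-sided exact sign-flip tests were used, 5 in all. Mycn had 0.152 ± 0.090 in deep and 0.220 ± 0.134 in shallow cells (SD, n = 10 batches, higher in deep cells in 2 of 10, exact p = 0.133) and Max 0.453 ± 0.167 and 0.541 ± 0.129 (exact p = 0.143). Mga had 1.31 ± 0.60 and 1.39 ± 0.54 (exact p = 0.451), Myc 0.105 and 0.0941 (exact p = 0.684) and Mycl 0.0309 and 0.0294 (exact p = 0.906). No difference passed, before any adjustment.

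Genes whose levels varied most like a member over the 16 samples were named by Pearson's r of log2 body RPM, among 9685 genes, as a description in which the assays and depths of the samples are shared. Closest to Mycn were Akr1a1 (r = 0.94), an aldehyde reductase, and Ddx21 (0.90), a nucleolar RNA helicase, and within the 10 batches alone r was 0.96 and 0.82. Closest to Myc were Atic (0.77), of purine synthesis, and Ran (0.75), of nuclear transport, with r of 0.40 and 0.36 within batches. Closest to Max were Pkp4 (0.68), a plakophilin, and Ddx42 (0.67), an RNA helicase, and to Mga Zfp979 (0.90) and Klhl7 (0.90). Mycl, under the minimum of 200 body reads that other genes had to pass, was closest to Phactr4 (0.93) and Pcyox1l (0.86).

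The other genes of the network were described by lists, and several calls depended on the fourth inAGTuC library. They are given as counts in the body comparison of inAGTuC with AGTuC beside 17.6% of all genes lower and 16.8% higher. The lists were not matched for gene length, with which this difference varied over all genes. Its median was -1.05 at 4 to 8 kb (34.9% lower), -0.78 at 8 to 16 kb (29.8%) and 0.39 at 64 to 128 kb (4.22%). Of 8 further MAX and MLX partners, 2 were lower and 0 higher, with a median log2 difference of -0.73 against -0.19 for all genes. These were Mnt, a repressor that competes with MYC for MAX (-1.75, SE 0.36, limma adjusted p = 0.00148), and Mlx, the partner of the MondoA branch (-1.28, SE 0.48, adjusted p = 0.0428). Mnt had a mean level of 7.89 ± 0.10 (SD, n = 2) in AGTuC and 2.53 ± 1.34 (n = 4) in inAGTuC. Mxd3, of the MXD family, had 4.16 and 1.95 and did not pass (adjusted p = 0.191). Without the fourth inAGTuC library only Mnt was called (-1.44, adjusted p = 0.00924; Mlx -1.13, adjusted p = 0.123), and the median was -0.15 against -0.06 for all genes.

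Of 13 PRC1.6 subunits that work with MGA, 4 were lower and 0 higher (median -0.66), namely Cbx3 (-1.69), a chromodomain reader, Wdr5 (-1.04), a WD-repeat adaptor, Tfdp1 (-1.03), the DNA-binding partner of E2F6, and Hdac1 (-0.99), a histone deacetylase. L3mbtl2 (-0.64, adjusted p = 0.108) and Pcgf6 (-0.63, adjusted p = 0.270), subunits particular to this complex, did not pass. Of 12 cofactors and ubiquitin ligases of MYC, Usp28, a deubiquitinase of MYC, was higher (0.86, SE 0.28, adjusted p = 0.0223) and Ruvbl2 (-1.28) and Kat5 (-1.28), of the TIP60 complex, were lower, with a median of -0.21. Trrap (0.22, adjusted p = 0.550) and Fbxw7 (0.14, adjusted p = 0.700), the scaffold and the ligase that bind MYC, did not pass. With that library left out, 5 of 13 subunits were lower, with L3mbtl2 added (-0.89, limma adjusted p = 0.0460) and Pcgf6 at -1.001 (0.135), and Yaf2, a PRC1 adaptor, was higher (0.96, adjusted p = 0.0215), with a median of -0.89. No cofactor was called without it, as Usp28 had 0.71 (adjusted p = 0.0720), Ruvbl2 -1.10 (0.0523) and Kat5 -0.90 (0.138), and Trrap and Fbxw7 had 0.18 and -0.05.

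Of 12 textbook MYC targets, 3 were lower and 0 higher (median -0.79), namely Fbl (-1.67) and Npm1 (-1.28), of the nucleolus, and Ldha (-1.41), of glycolysis. Ncl, a nucleolar protein, had the highest level of all listed genes, at 74.9 ± 2.7 (SD, n = 2) in AGTuC, 69.2 ± 65.1 (n = 4) in inAGTuC and 135 ± 51 (n = 10) in scGRO–seq, and did not pass (-0.58, limma adjusted p = 0.434). Odc1, of polyamine synthesis, had 11.4 ± 1.0, 18.2 ± 11.7 and 19.3 ± 10.0 (0.44, adjusted p = 0.538). Of the 12 targets, 5 were lower without the fourth inAGTuC library (median -1.03), with Ncl (-1.28, adjusted p = 0.0445) and Eif4e, a translation factor (-0.998, adjusted p = 0.0235), added, while Odc1 had 0.27 (adjusted p = 0.758). Between scGRO–seq and inAGTuC none of the 45 listed genes was called, and without that library Ncl alone was, as higher in scGRO–seq. In the promoter comparison of inAGTuC with AGTuC, 2 of 8 partners (Mlxip and Mxd1), 3 of 13 PRC1.6 subunits (Rnf2, Tfdp1 and Yaf2), 5 of 12 cofactors and 1 of 12 targets (Odc1) were lower and none higher, beside 37.0% of all genes lower. These counts were 2, 2, 4 and 0 without the fourth inAGTuC library, and Skp2, a ubiquitin ligase subunit, was higher. Upstream, 16 of the listed genes passed the read minimum and all were lower (15 without that library), beside 88.3% of the 4516 genes past the minimum, which genes can pass through AGTuC alone.

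Next to Myc, the long non-coding RNA gene Pvt1 begins 47.6 kb beyond its end on the same strand, and its body level was 5.30 ± 0.09 in AGTuC (SD, n = 2), 4.92 ± 1.89 in inAGTuC (n = 4) and 5.55 ± 1.84 in scGRO–seq (n = 10), on 4040, 2432 and 5678 reads. Per length Pvt1 was thus below Myc in AGTuC (7.04) and above it in inAGTuC (2.26) and scGRO–seq (4.07), which was not tested. Of the other neighbours, Trit1 near Mycl had 3.28, 1.98 and 1.98, and Mapkbp1, 3.12 kb from Mga, had 0.754, 0.958 and 0.723.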

How the data were processed

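The deposited files list 1 deduplicated read per line with its place on mm10 (GRCm38), strand and a mapping quality score that the authors' aligner gave. The authors trimmed adapters with cutadapt, aligned with Bowtie2 and collapsed reads by position and molecular identifier (UMI) with UMI-tools, and versions are not given in the sources used here. The RNA strand was taken as opposite to the read and the polymerase position as the read's 5′ end.

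Reads found in more than 1 library (0.245 to 0.511% in AGTuC, 4.67 to 23.5% in inAGTuC and 0.320 to 67.6% in scGRO–seq) were left out. Single cells were barcodes with at least 1000 reads and 750 genes in libraries with at least 24 such cells, which gave 2512 cells of 35 libraries in 10 listed batches. Barcodes are reused across plates (254 distinct, with 2484 cells sharing theirs with a cell of another library). A list labelled scGRO–seq with 99.7% of its molecules in an inAGTuC list was counted once, as inAGTuC. Depth was 2231837 and 4755740 reads for AGTuC, 623265 to 1462003 for inAGTuC and 223119 to 4928371 per scGRO–seq batch, and it limits the short genes most.

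Sense reads of promoters and bodies and antisense reads of the 1000 bp upstream were counted on RefSeq curated spans, and genes with at least 50 reads over 16 samples were tested with limma 3.58.1 (voom, R 4.3.3) and Benjamini–Hochberg adjustment at 0.05, with 3 assays in 1 fit. The files hold reads and not count columns, so counts were made here, and limma was used on them rather than a count model. Sign-flip tests over batches were exact and two-sided, with 0.5 reads added for ratios of levels. Python 3.11.15, numpy 2.4.6, pandas 2.3.3, scipy 1.17.1 and matplotlib 3.10.9 were used, and scripts were tested on simulated data. Intervals of shares are 95% Wilson intervals for cells and exact Clopper–Pearson intervals for reads, and a count of 0 was given the limit of 3 counts.

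Members and lists were chosen with earlier results of these data known. Named are the 5 members, listed genes that passed or serve as examples, neighbours, and the 2 genes most like each member among those with at least 200 body reads. Alternatives were reads in several libraries kept, no gene minimum for cells, all labelled batches, near reads counted once, mapping quality of at least 10, other scalings, windows and read minimums, limma-trend, plates as samples, and each library or batch left out. Body levels from introns alone, and all batches with the experiment as a block, were added after the data were seen.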

Additional observations from a re-analysis of the deposited data

Results flagged for a closer look

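Among 32 sets of 4 to 10 samples, 3 held 1 sample far from the others, where chance gives about 1 in 20. The antisense level of Myc was 10.6 RPKM in batch Exp211, the highest of 10 batches, and 8 of its 111 cells had an antisense read beside 3 with a sense read. The body level of Max was 5.92 in the fourth inAGTuC library, the highest of 4, which is the library that also carries the scGRO–seq label. The antisense level of Max was 2.99 in the third inAGTuC library, the highest of 4.

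Of 302 cells in 4 batches that the comparisons did not use, 49 had an Mga read (16.2%), 15 a Max read (4.97%), 15 a Mycn read (4.97%) and 8 an Mycl read (2.65%), listed because they exceed the 0.993% that a count of 0 allows. Any count above 3 cells does so, and it shows no expression by itself. Antisense reads on the same spans were in 4 of these cells for Mga, 3 for Max, 10 for Mycn and 2 for Mycl, and the shares were not tested against them. Myc had a read in 1 cell (0.331%) and an antisense read in 1.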

How the results depend on the processing

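Of the members, 2 were called in the body comparison of inAGTuC with AGTuC, limma-trend called 1, with Myc at an adjusted p of 0.0860, and plates with the batch as a random block called 3, with Mga higher (0.59, adjusted p = 0.0437). The plates fit holds the same AGTuC and inAGTuC libraries and adds no replicate to this comparison. With 1 sample left out at a time the count was 0 to 2, where it was 0 without AGTuC replicate 2 and 1 without inAGTuC replicate 2. Over all alternatives, adjusted p-values ran from 0.000850 to 0.0512 for Mycn and from 0.00487 to 0.143 for Myc in this comparison, 0.0112 to 0.876 for Mycl at the promoter and 0.00218 to 0.9997 for Max upstream. The promoter call of Mycl was lost (0 members called) with all labelled batches (adjusted p = 0.0857), quantile normalization (0.876), no read minimum (0.0538) and limma-trend (0.0521), and the range with 1 sample left out was 0 to 1. The upstream call of Max was lost with quantile normalization (0 called) and could not be tested under mapping quality of at least 10, a window of 500 bp or without either AGTuC library. With plates as samples and the batch as a random block, Mycl was called between scGRO–seq and inAGTuC at the promoter (1 member, 1.86, adjusted p = 0.0245). The median over all genes was 1.25 in that fit. Order gave 1 pair past the threshold, and 2 with no gene minimum for cells (1 to 2 with a batch left out). Deep and shallow cells differed for 0 members, and for 1 with all deposited reads (Myc), all batches (Max, -0.0997) or mapping quality of at least 10 (Mycn), at unadjusted exact p-values (0 to 1 with a batch left out). The mean share of cells with any member was 52.6%, and 40.9% with no gene minimum. With all deposited reads, 807 of 3041 cells (26.5%) had 2 or more Mga reads, 191 (6.28%) Max, 47 (1.55%) Mycn, 9 Myc and 0 Mycl. At least 1 read was then in 52.7% of cells for Mga, 24.4% for Max, 13.4% for Mycn, 4.87% for Myc and 1.38% for Mycl.

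Of the results that passed, only the upstream difference of Max turned its sign, under quantile normalization (1.12). The upstream median over all genes was then 0.048, in place of -3.23. Between inAGTuC and AGTuC, Max had a body difference of -0.010 scaled to all reads and -0.021 without inAGTuC replicate 4. At the promoter, quantile normalization gave 1.50 for Mga, 1.26 for Mycn, 2.46 for Max and 0.60 for Myc, the window of 250 bp gave 1.28 for Myc, and Max had 0.15 without AGTuC replicate 2 and 0.36 without inAGTuC replicate 4. Between scGRO–seq and inAGTuC, the body difference of Mga was -0.19 with all batches, -0.16 in introns, -0.039 and -0.11 without inAGTuC replicate 1 or 3, and -0.024 to 0.18 with a batch left out. That of Mycl was 0.025 with all batches, 0.048 with quantile normalization, 0.39 with plates, 0.040 and 0.21 without inAGTuC replicate 1 or 3, and -0.31 to 0.084 with a batch left out. That of Mycn was -0.014 with mapping quality of at least 10, -0.039 with plates, -0.13 in introns, -0.015 and -0.078 without inAGTuC replicate 1 or 3, and -0.071 to 0.23 with a batch left out. That of Max was 0.034 without inAGTuC replicate 4. Max was 0.31 at the promoter and 0.078 upstream with all batches, and upstream 1.01 with plates, 0.11 without inAGTuC replicate 1 and -0.44 to 0.028 with a batch left out. Log2 ratios of levels with all deposited reads were 0.070 for Max over Myc (-0.17 to 0.035 with a batch left out) and -0.13 for Myc over Mga. Deep minus shallow cells, in reads per 10000, turned to -0.010 for Mycl, 0.015 for Max and 0.298 for Mga with all deposited reads, and to -0.0040, 0.075 and 0.034 with no gene minimum (0.0015, -0.089 and -0.079 as reported), and with a batch left out ran from -0.0068 to 0.023 for Myc and -0.0086 to 0.013 for Mycl. The causes were not tested.

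Over all genes, the 5204 body calls (2668 lower) were 3095 with limma-trend (847 lower), 3470 with all batches, 2779 without AGTuC replicate 1 and 1006 without replicate 2. The 6083 promoter calls were 3588 with all batches, 5 with quantile normalization, and 1723 and 1387 without AGTuC replicate 1 or 2. The 4004 upstream calls were 14 with quantile normalization and 2382 and 922 without those libraries. Between scGRO–seq and inAGTuC, where 0 genes were called, plates gave 4936 promoter and 1828 upstream calls, quantile normalization 216 upstream, and the fit without inAGTuC replicate 4 gave 140 body and 3 promoter calls. The groups share no replicate numbers in the labels, but Exp208, Exp261 and Exp234 hold both assays, of which Exp234 had no scGRO–seq cell past the minimum of reads and was not in the fit. A paired fit, chosen after the data were seen, with all batches and the experiment as a block called no member, and turned the body differences of Mga (-0.21), Mycl (0.74) and Mycn (-0.17) and those of Max at the promoter (0.69) and upstream (0.0080), where 34 genes were called. That fit had 3 residual degrees of freedom and rests in part on the fourth inAGTuC library, from Exp261, whose label is not certain. AGTuC has no experiment in common with the other assays. Few reads of Myc, Mycn and Mycl in intact nuclei, 14 to 67 body reads over the inAGTuC libraries, limit what could be detected.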
